A study of Homo sapiens with 6 samples.

Results

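The Kruppel-like factors examined here are 10 genes chosen by name, KLF2, KLF3, KLF4, KLF5, KLF6, KLF7, KLF9, KLF10, KLF11 and KLF13, out of 58219 gene identifiers counted in each library. All 10 had enough reads to be tested, and 14723 genes were tested in all. The cells were SNU-449, an established human hepatocellular carcinoma line. In one stable line the cells expressed Yes T348I (3 libraries), a form of the SRC family tyrosine kinase Yes that is altered at the gatekeeper residue of the drug pocket. In the other they expressed wild-type Yes (Yes WT, 3 libraries). Both lines had received 100 nM dasatinib, a drug that blocks ABL and SRC family kinases. Cells without the drug were not analysed here. It is not stated in the labels whether a line was 1 clone or a pool, nor whether its 3 libraries were grown separately. P-values thus describe the spread among libraries, which may be technical. The line and the Yes form cannot be told apart.

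Kruppel-like factors are transcription factors that bind GC-rich and CACCC sequences through a run of C2H2 zinc fingers at the C terminus, and they differ in the N-terminal part that recruits partners. KLF2, KLF4, KLF5, KLF6 and KLF7 are mostly described as activators. KLF3 recruits the corepressor CtBP, and KLF9, KLF10, KLF11 and KLF13 bind the corepressor SIN3A. Several are early response genes whose transcripts turn over quickly, and the family is known for roles in differentiation, proliferation and hormone or growth factor responses.

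The RefSeq promoter table (GRCh38.p14) held windows for 8 of the 10 genes, 13 in all, and 5 genes had a single window. The 250 bases before the start are shown for 4 of those genes. KLF6 was the most abundant of the 10 and rose in Yes T348I, KLF9 and KLF13 fell, and KLF2 did not pass the test. The windows are chr10:3785210-3785459 on the minus strand, chr9:70414658-70414907 on the minus strand, chr15:31326585-31326834 on the plus strand and chr19:16324576-16324825 on the plus strand. Capitals mark matches, on either strand, to any of 6 motifs. These were GGGCGG, the GC box that SP and many KLF proteins bind, and CACCC, the other classical site of the family. CATTCC is the core bound by TEAD factors, and TGANTCA is that of AP-1. The MEF2 motif was taken as CTA, any 4 bases and TAG, and the palindromic glucocorticoid receptor element was also searched.
KLF6: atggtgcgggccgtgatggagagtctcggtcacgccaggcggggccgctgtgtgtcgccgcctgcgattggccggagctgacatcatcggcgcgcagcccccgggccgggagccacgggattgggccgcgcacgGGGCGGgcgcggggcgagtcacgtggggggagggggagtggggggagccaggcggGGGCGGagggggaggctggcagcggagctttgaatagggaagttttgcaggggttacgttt
KLF9: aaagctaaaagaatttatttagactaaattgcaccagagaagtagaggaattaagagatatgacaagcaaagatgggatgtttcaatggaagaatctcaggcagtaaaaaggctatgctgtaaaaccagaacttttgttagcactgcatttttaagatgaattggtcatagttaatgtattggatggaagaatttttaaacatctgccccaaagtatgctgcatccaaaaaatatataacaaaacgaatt
KLF13: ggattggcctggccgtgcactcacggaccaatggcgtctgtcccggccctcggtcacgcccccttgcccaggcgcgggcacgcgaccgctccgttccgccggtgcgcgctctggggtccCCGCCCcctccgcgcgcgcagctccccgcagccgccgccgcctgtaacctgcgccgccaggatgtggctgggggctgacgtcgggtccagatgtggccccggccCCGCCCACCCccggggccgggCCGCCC
KLF2: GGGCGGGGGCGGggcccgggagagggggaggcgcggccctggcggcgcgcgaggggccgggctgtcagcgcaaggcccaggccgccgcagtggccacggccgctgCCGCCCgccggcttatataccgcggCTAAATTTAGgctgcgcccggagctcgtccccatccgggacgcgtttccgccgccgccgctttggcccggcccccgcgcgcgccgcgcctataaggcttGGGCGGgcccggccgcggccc

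The KLF6 window held 2 GC boxes and no CACCC, and the KLF13 window held 3 GC boxes and 1 CACCC that overlaps one of them. The KLF9 window, at 32.4% G and C against a median of 58.0% over all 35116 windows of the table, held none of the 6 motifs. The KLF2 window, at 80.0% G and C, held 4 GC boxes, of which the first 2 adjoin, and the MEF2-type sequence CTAAATTTAG that begins 120 bases before the start. The KLF4 window, the other single window and not shown, had 69.2% G and C. It held 4 GC boxes and none of the other motifs. Of all windows, 42.6% held a GC box, 54.7% held CACCC and 2.36% matched the MEF2 pattern, which allows any 4 middle bases. Among the 13 windows of the family, 8 held a GC box, 6 held CACCC and 2 matched the MEF2 pattern. The second match was CTAGCGGTAG in KLF11, whose middle bases are all G or C. CATTCC was in 1 of the 13, a KLF7 window, against 11.9% of all windows, and TGANTCA was in none of them, against 6.57%. The glucocorticoid receptor motif was in 1 window of the whole table and in none of the family. These matches are descriptions of letters in a window and do not show binding.

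Gene counts totalled 14392286 to 19608763 in Yes T348I libraries and 14360137 to 16117573 in Yes WT libraries, and the median log2 fold change over all tested genes was -0.01. YES1, whose counts can include the introduced copy, averaged 409 ± 26.2 CPM (counts scaled to library size, with TMM factors) in Yes T348I and 364 ± 6.17 CPM in Yes WT (SD, n = 3 each). It was higher in Yes T348I without overlap (log2 fold change 0.17, SE 0.04, edgeR adjusted p = 9.94e-05). With a correction for GC content and length the value was 0.077 (edgeR adjusted p = 0.027). The part of this difference in the results was not tested. Defining hepatocyte genes were nearly absent in both lines, with none of 10 above 2.61 CPM in any library and a summed level of 1.71 to 3.79 CPM in Yes T348I and 4.15 to 5.62 CPM in Yes WT. Of 5 endothelial markers, of interest because KLF2 and KLF4 are prominent in endothelium, TEK had no count in any library, which allows up to 0.209 CPM in the shallowest, and the summed level was 0.480 to 0.564 CPM in Yes T348I and 1.14 to 1.53 CPM in Yes WT. The 4 leukocyte markers summed to at most 0.353 CPM in Yes T348I and 0.367 CPM in Yes WT. The part of the lower hepatocyte and endothelial sums in the results was not tested. VIM, which encodes the mesenchymal filament protein vimentin, stood at 6519 to 6894 CPM in Yes T348I and 6163 to 6227 CPM in Yes WT, and was called higher. The 4 epithelial markers summed to 411 to 451 CPM in Yes T348I and 422 to 437 CPM in Yes WT, nearly all from the keratin genes KRT8 and KRT18. The other markers were low, with KRT19 at most 1.17 CPM and EPCAM at most 0.736 CPM in any library. Fibroblast and stellate markers, nearly all from COL1A1, summed to 116 to 134 CPM in Yes T348I and 108 to 120 CPM in Yes WT.

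Of the 10 Kruppel-like factors, 4 rose in Yes T348I (KLF5, KLF6, KLF7 and KLF10), 3 fell (KLF9, KLF11 and KLF13) and 3 did not pass the test (KLF2, KLF3 and KLF4). A gene passed when its adjusted p was under 0.05 in edgeR's quasi-likelihood test. Over all tested genes 55.3% passed, 28.0% as higher and 27.3% as lower, and the 7 of 10 is to be read against that share. The libraries of Yes T348I and Yes WT did not overlap for the same 7 genes, against 59.5% of all tested genes. Only KLF9 changed at least 2-fold, as did 4.08% of all tested genes, 3.21% as lower. The median size of the log2 fold change, without regard to sign, was 0.40 over the 10 factors and 0.23 over all tested genes. In bulk RNA, a change in the number of cells with a transcript and a change in the RNA per cell cannot be told apart.

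**Figure D1:**
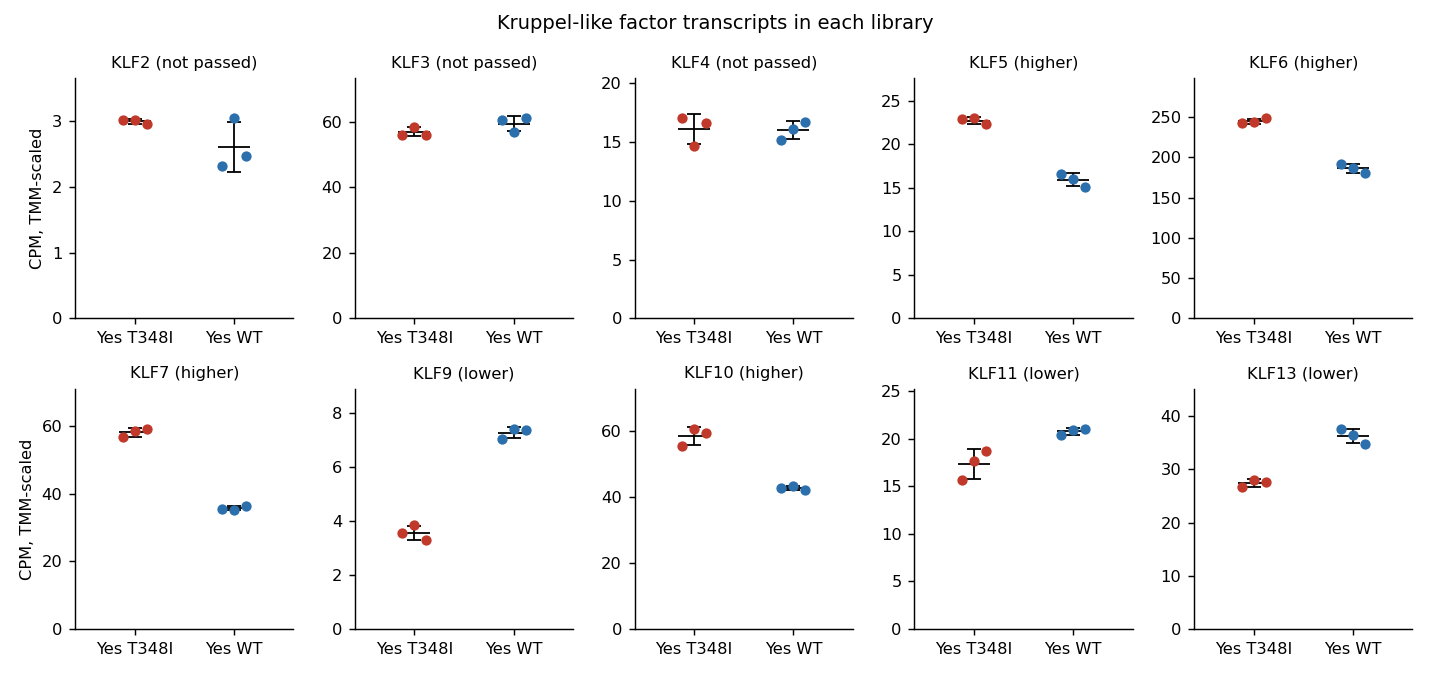
Level of each of the 10 Kruppel-like factor transcripts in CPM, TMM-scaled, with 1 point per library for Yes T348I (red, left) and Yes WT (blue, right), bars for mean and SD (n = 3), each axis starting at 0, and the call in the title. KLF5, KLF6, KLF7 and KLF10 lie higher in all Yes T348I libraries, KLF9, KLF11 and KLF13 lie lower, and the points of KLF2, KLF3 and KLF4 overlap.

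Among the activator-type factors, 3 of 5 rose and the other two did not pass, while 28.0% of all tested genes rose and 55.3% passed in either direction. KLF6, a zinc finger factor described as an early gene of liver injury and as a tumour suppressor, lies on chromosome 10 (ENSG00000067082.14, 3775996 to 3785281, GRCh38). It had 243, 244 and 248 CPM in Yes T348I libraries, against 192, 187 and 180.4 CPM in Yes WT libraries. All 3 Yes T348I values lay above all Yes WT values, and the transcript rose 1.31-fold (log2 fold change 0.39, SE 0.03, edgeR adjusted p = 3.55e-13). Of all tested genes 90.2% had a lower log2 fold change.

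KLF7, known from neuronal development and adipocytes, lies on chromosome 2 (ENSG00000118263.14, 207074137 to 207167267). It had 56.7, 58.6 and 59.1 CPM in Yes T348I libraries, against 35.6, 35.2 and 36.4 CPM in Yes WT libraries. Its rise of 1.63-fold (log2 fold change 0.70, SE 0.05, edgeR adjusted p = 2.11e-15) was the largest among the 10, and 97.7% of all tested genes had a lower log2 fold change. KLF5, a factor of proliferating epithelium and smooth muscle, lies on chromosome 13 (ENSG00000102554.13, 73054976 to 73077542). It had 22.9, 23.0 and 22.3 CPM in Yes T348I libraries, against 16.6, 16.1 and 15.1 CPM in Yes WT libraries. The groups were well apart, and KLF5 rose 1.43-fold (log2 fold change 0.51, SE 0.07, edgeR adjusted p = 1.06e-07).

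KLF4, a factor of epithelial differentiation that is also used in reprogramming to pluripotency, lies on chromosome 9 (ENSG00000136826.14, 107484852 to 107490482). It had 17.0, 14.7 and 16.6 CPM in Yes T348I libraries, against 15.2, 16.1 and 16.7 CPM in Yes WT libraries. The groups overlapped throughout (log2 fold change 0.02, SE 0.08, edgeR adjusted p = 0.88), with an approximate 95% interval of -0.14 to 0.18. KLF2, which is induced by fluid flow and keeps endothelium quiescent, lies on chromosome 19 (ENSG00000127528.5, 16324817 to 16327874). It rested on 59, 44 and 42 counts in Yes T348I libraries, against 38, 44 and 37 counts in Yes WT libraries. In CPM these were 3.03, 3.02 and 2.96 in Yes T348I, against 2.32, 3.05 and 2.47 in Yes WT. One Yes WT library lay above all 3 Yes T348I libraries, and the difference did not pass (log2 fold change 0.21, SE 0.18, edgeR adjusted p = 0.35). Counting error alone is 15.1% of a KLF2 value at the mean count, and the interval of the log2 fold change was -0.15 to 0.56.

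KLF3, the CtBP-binding repressor of the set, known from red cell and fat cell differentiation, lies on chromosome 4 (ENSG00000109787.12, 38664196 to 38701042). It had 56.2, 58.6 and 56.2 CPM in Yes T348I libraries, against 60.6, 56.9 and 61.1 CPM in Yes WT libraries. The ranges overlapped, and the difference did not pass (log2 fold change -0.06, SE 0.05, edgeR adjusted p = 0.26), with an interval of -0.16 to 0.03. When the counts were corrected for GC content and length the difference passed the test, at -0.11 (edgeR adjusted p = 0.033).

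Of the 4 SIN3A-binding factors, 1 rose and 3 fell, or 1 and 2 without Yes T348I replicate 1, beside the 55.3% of all tested genes that passed. KLF10, first described as a TGF-beta-inducible early gene, lies on chromosome 8 (ENSG00000155090.14, 102648779 to 102655902). It had 55.6, 60.6 and 59.4 CPM in Yes T348I libraries, against 42.8, 43.3 and 42.3 CPM in Yes WT libraries. Every Yes T348I library was above every Yes WT library, and the rise was 1.36-fold (log2 fold change 0.45, SE 0.05, edgeR adjusted p = 4.29e-10). KLF11, also first described as a TGF-beta-inducible gene, went the other way. It lies on chromosome 2 (ENSG00000172059.10, 10042849 to 10054836) and had 15.6, 17.7 and 18.7 CPM in Yes T348I libraries, against 20.3, 20.9 and 21.0 CPM in Yes WT libraries. The Yes T348I values were all lower but more spread, and the log2 fold change was -0.27 (SE 0.08, edgeR adjusted p = 0.0026). The call rests on Yes T348I replicate 1, the lowest library, since without it the log2 fold change was -0.18 (edgeR adjusted p = 0.057).

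KLF9, a hormone-responsive factor that thyroid hormone and glucocorticoids induce, lies on chromosome 9 (ENSG00000119138.4, 70384597 to 70414624). It was counted 69, 56 and 47 times in Yes T348I libraries, against 115, 107 and 110 times in Yes WT libraries. In CPM these were 3.54, 3.84 and 3.31 in Yes T348I, against 7.03, 7.41 and 7.36 in Yes WT. The groups were far apart despite the low counts, and the fall of 2.03-fold (log2 fold change -1.02, SE 0.13, edgeR adjusted p = 1.65e-08) was the largest change in size among the 10. Of all tested genes 3.07% had a lower log2 fold change. The value lies at the border of 2-fold, at -0.98 with unstranded counts or without Yes T348I replicate 3. KLF13, known as a regulator of CCL5 in T cells, lies on chromosome 15 (ENSG00000169926.10, 31326855 to 31435665). It had 26.6, 27.9 and 27.7 CPM in Yes T348I libraries, against 37.6, 36.4 and 34.8 CPM in Yes WT libraries. The Yes T348I values were all below the Yes WT values, and the transcript fell (log2 fold change -0.41, SE 0.06, edgeR adjusted p = 1.59e-07). Corrected for GC content and length, the log2 fold change was -0.27 (edgeR adjusted p = 5.35e-05).

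**Figure D2:**
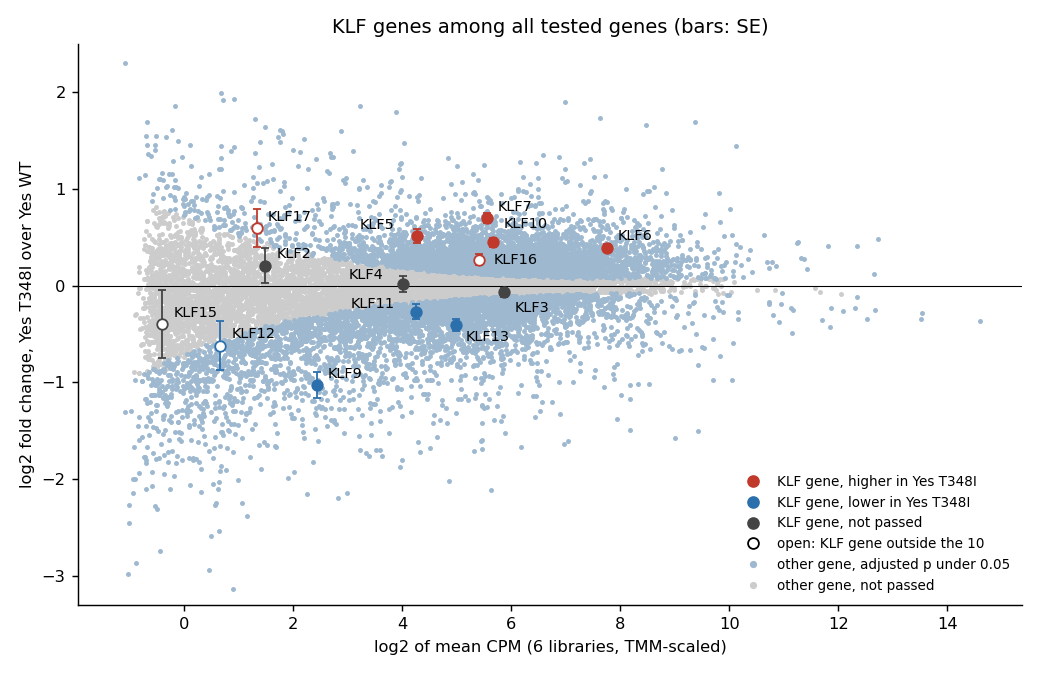
Log2 fold change (Yes T348I over Yes WT, bars of SE for the KLF genes) against log2 of mean CPM over the 6 libraries for all 14723 tested genes, with the 10 factors as filled points and 4 further KLF genes as open points. KLF7 is highest among the filled points at 0.70 and KLF9 lowest at -1.02, and both lie inside the cloud of other genes.

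On a scale that allows comparison between genes, CPM per kilobase of annotated exon, KLF6 was the most abundant of the 10 in both lines. Its level was 39.9 ± 0.503 in Yes T348I and 30.4 ± 0.931 in Yes WT (CPM per kb, SD, n = 3 each). KLF10 followed at 14.6 ± 0.656 in Yes T348I and 10.7 ± 0.132 in Yes WT, and KLF3 came next at 9.05 ± 0.224 in Yes T348I and 9.45 ± 0.365 in Yes WT. In Yes T348I the order continued with KLF7, KLF5, KLF4, KLF11, KLF13, KLF2 and KLF9, and of the neighbours in that order only KLF4 and KLF11 overlapped in their ranges. In Yes WT the levels of KLF11, KLF4, KLF5, KLF13 and KLF7 lay close together, between 4.52 and 3.85 CPM per kb, each overlapping its neighbour in the order. KLF7 stood above KLF5, KLF4, KLF11 and KLF13 in Yes T348I and last among these 5 in Yes WT. The lowest were KLF9, at 0.689 ± 0.0511 in Yes T348I and 1.40 ± 0.0397 in Yes WT, and KLF2, at 1.49 ± 0.0173 in Yes T348I and 1.30 ± 0.189 in Yes WT. The exon length takes in all annotated isoforms, so a gene with long unused exons is understated.

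The summed level of the 10 factors was 87.4 to 90.0 CPM per kb in Yes T348I and 72.9 to 74.7 CPM per kb in Yes WT, with no overlap. KLF6 made up 44.9% ± 0.439 of that sum in Yes T348I and 41.1% ± 0.766 in Yes WT (SD, n = 3 each). The share of KLF10 was 16.4% ± 0.524 in Yes T348I and 14.5% ± 0.163 in Yes WT. KLF13 took 3.27% ± 0.0403 in Yes T348I and 5.22% ± 0.135 in Yes WT. These shares add to a fixed total, so a larger share of one lowers the others, and they are given as a description without a test.

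**Figure D3:**
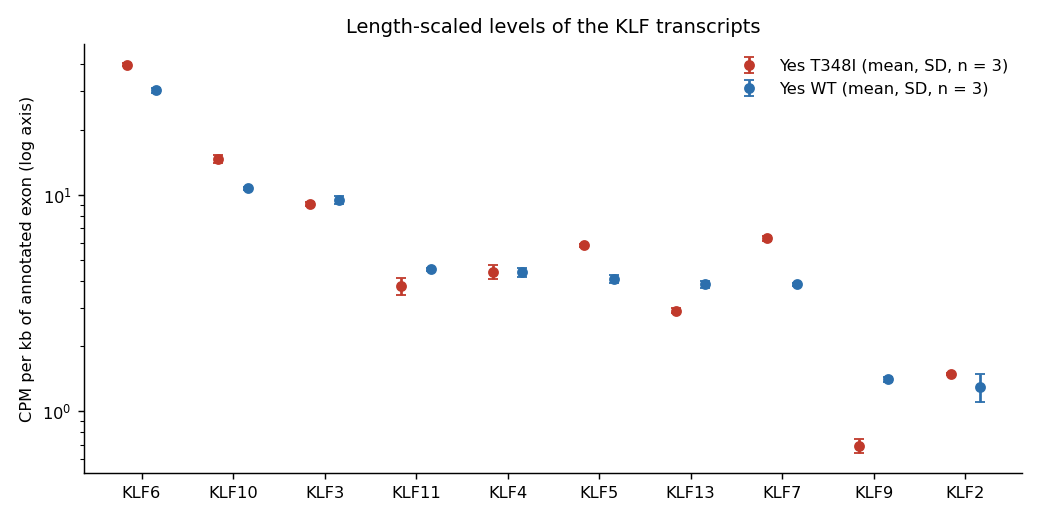
Level of each factor in CPM per kilobase of annotated exon on a log axis, as mean and SD of 3 libraries, for Yes T348I (red, left of each pair) and Yes WT (blue, right), ordered by the Yes WT mean. KLF6 is the most abundant in both lines, the levels of KLF11, KLF4, KLF5, KLF13 and KLF7 lie close together in Yes WT, and those of KLF7 and KLF5 stand above KLF11, KLF4 and KLF13 in Yes T348I.

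The family has 8 further genes in the files, of which 4 were tested and the other four had at most 7 counts in any library. KLF16, a SIN3A-binding relative, had 50.0, 42.6 and 45.5 CPM in Yes T348I libraries, against 37.0, 38.6 and 40.0 CPM in Yes WT libraries. It was higher without overlap (log2 fold change 0.27, SE 0.06, edgeR adjusted p = 1.14e-04), and 0.47 with the GC and length correction. KLF14 is an intronless copy of KLF16, so reads that fit both may be missing and the value is uncertain. KLF17 and KLF12 passed on few reads. KLF17 averaged 3.03 ± 0.364 CPM in Yes T348I and 2.03 ± 0.466 CPM in Yes WT (SD, n = 3 each, log2 fold change 0.60, edgeR adjusted p = 0.011), and its values did not overlap between the groups. It did not pass with DESeq2 (0.59, adjusted p = 0.067), or on leaving out Yes WT replicate 1 (0.48, edgeR adjusted p = 0.071) or 3 (0.53, edgeR adjusted p = 0.051). KLF12, a CtBP-binding repressor, averaged 1.24 ± 0.230 CPM in Yes T348I and 1.92 ± 0.591 CPM in Yes WT (SD, n = 3 each), with overlapping values (log2 fold change -0.62, edgeR adjusted p = 0.039). It did not pass with DESeq2 (-0.62, adjusted p = 0.14), with limma-voom (-0.58, adjusted p = 0.066) or with no low-count filter (-0.59, edgeR adjusted p = 0.052), at folds close to the one reported. Nor did it pass on leaving out replicate 2 or 3 of Yes T348I, or replicate 1 or 3 of Yes WT (-0.64 to -0.46, edgeR adjusted p of 0.061 to 0.21). KLF15 rested on 17, 9 and 6 counts in Yes T348I libraries, against 12, 11 and 17 in Yes WT libraries. It did not pass (log2 fold change -0.40, SE 0.35, edgeR adjusted p = 0.35), and its log2 fold change ranged from -0.73 to -0.17 under the other ways of processing the counts.

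Of 9 SP genes, whose proteins share the zinc finger type and the GC box, 5 were tested, 2 fell and 3 did not pass, while 27.3% of all tested genes fell and 55.3% passed in either direction. SP9, a factor of limb and neuronal development, had 4.72, 4.32 and 4.51 CPM in Yes T348I libraries, against 8.92, 9.07 and 9.96 CPM in Yes WT libraries. The groups were far apart (log2 fold change -1.04, SE 0.12, edgeR adjusted p = 9.13e-10). Under the other ways of processing the counts, the SP9 log2 fold change ranged from -1.08 to -0.80. SP1, the founding and widely expressed member, averaged 88.8 ± 6.10 CPM in Yes T348I and 102 ± 2.75 CPM in Yes WT (SD, n = 3 each, log2 fold change -0.20, SE 0.04, edgeR adjusted p = 1.38e-04). SP3 had a log2 fold change of -0.07 (edgeR adjusted p = 0.085), which passed at -0.11 with library size only (edgeR adjusted p = 0.0089) and with upper quartile factors (edgeR adjusted p = 0.0063). SP2 and SP4 had log2 fold changes of 0.02 and -0.03.

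The partners, upstream genes, ubiquitin enzymes and described targets are given by count. Beside these counts, 55.3% of all tested genes passed, 28.0% as higher and 27.3% as lower. Of 12 corepressors and coactivators, 2 rose and 5 fell, with a median log2 fold change of -0.10. CTBP2, one of the CtBP corepressor genes, rose (log2 fold change 0.25, SE 0.04, edgeR adjusted p = 2.73e-07), and so did the deacetylase gene HDAC2 (0.14, SE 0.04, edgeR adjusted p = 0.0011). The acetyltransferase genes EP300 and CREBBP fell, at log2 fold changes of -0.26 (SE 0.04, edgeR adjusted p = 4.68e-06) and -0.16 (SE 0.04, edgeR adjusted p = 0.0030). With the GC and length correction EP300 stood at -0.15 (edgeR adjusted p = 9.80e-04). CREBBP no longer passed without Yes T348I replicate 1 (edgeR adjusted p = 0.055), and after the GC and length correction its log2 fold change was 0.0083. The number of this list that fell, 5 as reported, was 2 on leaving out replicate 3 of either line, with DESeq2 or with no low-count filter. It was 3 on leaving out Yes WT replicate 2, with unstranded counts or with the GC and length correction, and 7 with upper quartile factors or library size only.

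The kinase ERK5, encoded by MAPK7, acts through MEF2 factors to induce KLF2 and KLF4. Of 10 genes of this arm 9 were tested, 2 rose and 3 fell, with a median log2 fold change of -0.06. The list pools kinase and MEF2 genes with class II deacetylase genes, so these counts and the median give no direction for the arm. MAPK7 itself did not pass, at 336 ± 13.0 CPM in Yes T348I and 342 ± 2.57 CPM in Yes WT (SD, n = 3 each, edgeR adjusted p = 0.61). MEF2D fell to 62.9 ± 3.05 CPM in Yes T348I, against 79.0 ± 3.51 CPM in Yes WT (SD, n = 3 each, log2 fold change -0.32, edgeR adjusted p = 1.08e-07), and the ERK5 kinase gene MAP2K5 fell by 0.35 on the log2 scale (SE 0.09, edgeR adjusted p = 8.07e-04). MEF2C had no count in any library, with the same limit as TEK. HDAC5, a class II deacetylase gene whose product binds MEF2, had 32.0, 25.8 and 28.3 CPM in Yes T348I libraries, against 58.1, 56.6 and 59.5 CPM in Yes WT libraries. It was 2.01-fold lower (SE of log2 0.06, edgeR adjusted p = 2.23e-18). Under the other ways of processing the counts, the HDAC5 log2 fold change ranged from -1.09 to -0.85, so the fall lies at the border of 2-fold. The related gene HDAC7 rose (log2 fold change 0.27, SE 0.05, edgeR adjusted p = 5.68e-06, and 0.41 with the GC and length correction). The number of the arm that rose, 2 as reported, was 1 on leaving out replicate 2 or 3 of Yes T348I, or replicate 1 or 2 of Yes WT. It was also 1 with DESeq2, upper quartile factors, library size only, the filter at 1 CPM or the replicate block, and 3 with the GC and length correction.

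Around KLF10 and KLF11, 3 of 10 TGF-beta pathway genes rose and 4 fell, with a median log2 fold change of -0.08. The ligand gene TGFB2 rose 1.83-fold, to 271 ± 13.4 CPM in Yes T348I, against 148 ± 8.10 CPM in Yes WT (SD, n = 3 each, log2 fold change 0.87, edgeR adjusted p = 2.04e-22). The receptor gene TGFBR2 fell (log2 fold change -0.36, SE 0.04, edgeR adjusted p = 1.90e-11). Of the signal transducers, SMAD3 rose (0.21, SE 0.04, edgeR adjusted p = 1.36e-05) and SMAD2 fell (-0.23, SE 0.04, edgeR adjusted p = 1.74e-05, and -0.11 with the GC and length correction).

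Around KLF9, 7 of 10 genes of nuclear receptors and their targets were tested, 1 rose and 4 fell, with a median log2 fold change of -0.24. The thyroid hormone receptor gene THRB fell to 15.5 ± 1.02 CPM in Yes T348I, against 25.1 ± 1.27 CPM in Yes WT (SD, n = 3 each, log2 fold change -0.70, edgeR adjusted p = 8.25e-11). THRA fell by 0.24 on the log2 scale (SE 0.07, edgeR adjusted p = 0.0015), which did not pass after the GC and length correction (-0.11, edgeR adjusted p = 0.15). Of the glucocorticoid-inducible genes, TSC22D3 fell (-0.55, SE 0.10, edgeR adjusted p = 2.12e-05) and so did PER1 (-0.37, SE 0.10, edgeR adjusted p = 0.0019). SGK1 rose (0.79, SE 0.04, edgeR adjusted p = 6.83e-21), and FKBP5 did not pass (0.03, SE 0.04, edgeR adjusted p = 0.56).

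Of 9 genes for enzymes that attach ubiquitin to Kruppel-like factors or remove it, 3 rose and 2 fell, with a median log2 fold change of 0.04. USP10, a deubiquitinase gene, rose to 179 ± 2.14 CPM in Yes T348I, against 127 ± 2.93 CPM in Yes WT (SD, n = 3 each, log2 fold change 0.50, edgeR adjusted p = 1.76e-15), and the ligase gene SMURF1 rose by 0.18 (SE 0.04, edgeR adjusted p = 1.90e-04). The ligase subunit gene FBXO32 fell (log2 fold change -0.73, SE 0.10, edgeR adjusted p = 1.66e-08). SIAH1 fell by 0.33 on the log2 scale (SE 0.08, edgeR adjusted p = 3.37e-04), but not with unstranded counts (-0.24, edgeR adjusted p = 0.10).

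Of 13 genes described elsewhere as targets of these factors, mostly in other cell types, 10 were tested, 3 rose and 3 fell. The median log2 fold change was 0.07. Over all tested genes 28.0% rose and 27.3% fell. THBD, the thrombomodulin gene, rose 2.64-fold to 5.83 ± 0.614 CPM in Yes T348I, against 2.18 ± 0.303 CPM in Yes WT (SD, n = 3 each, edgeR adjusted p = 1.53e-09). The cyclin gene CCND1 rose 2.03-fold (edgeR adjusted p = 2.30e-27), and TXNIP, which encodes a thioredoxin-binding protein, fell by 0.84 on the log2 scale (SE 0.12, edgeR adjusted p = 5.28e-08). LGALS3, which encodes the lectin galectin-3, fell by 0.29 on the log2 scale (SE 0.05, edgeR adjusted p = 7.97e-07). S1PR1 fell 2.23-fold to 1.76 ± 0.130 CPM in Yes T348I, against 3.96 ± 0.767 CPM in Yes WT (SD, n = 3 each, edgeR adjusted p = 2.55e-06). With THBD and CCND1 it made up the 3 genes of the list that changed at least 2-fold. Of all tested genes 4.08% did so, 0.876% as higher and 3.21% as lower. THBD and S1PR1 rested on few reads. THBD had 80 to 104 counts in Yes T348I libraries, against 27 to 37 in Yes WT libraries. S1PR1 had 24 to 34 counts in Yes T348I libraries, against 51 to 69 in Yes WT libraries. CCND1 lay at the border of 2-fold, at a log2 fold change of 0.98 with upper quartile factors. Which of these, if any, is under the control of a Kruppel-like factor in SNU-449 cells was not tested.

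**Figure D4:**
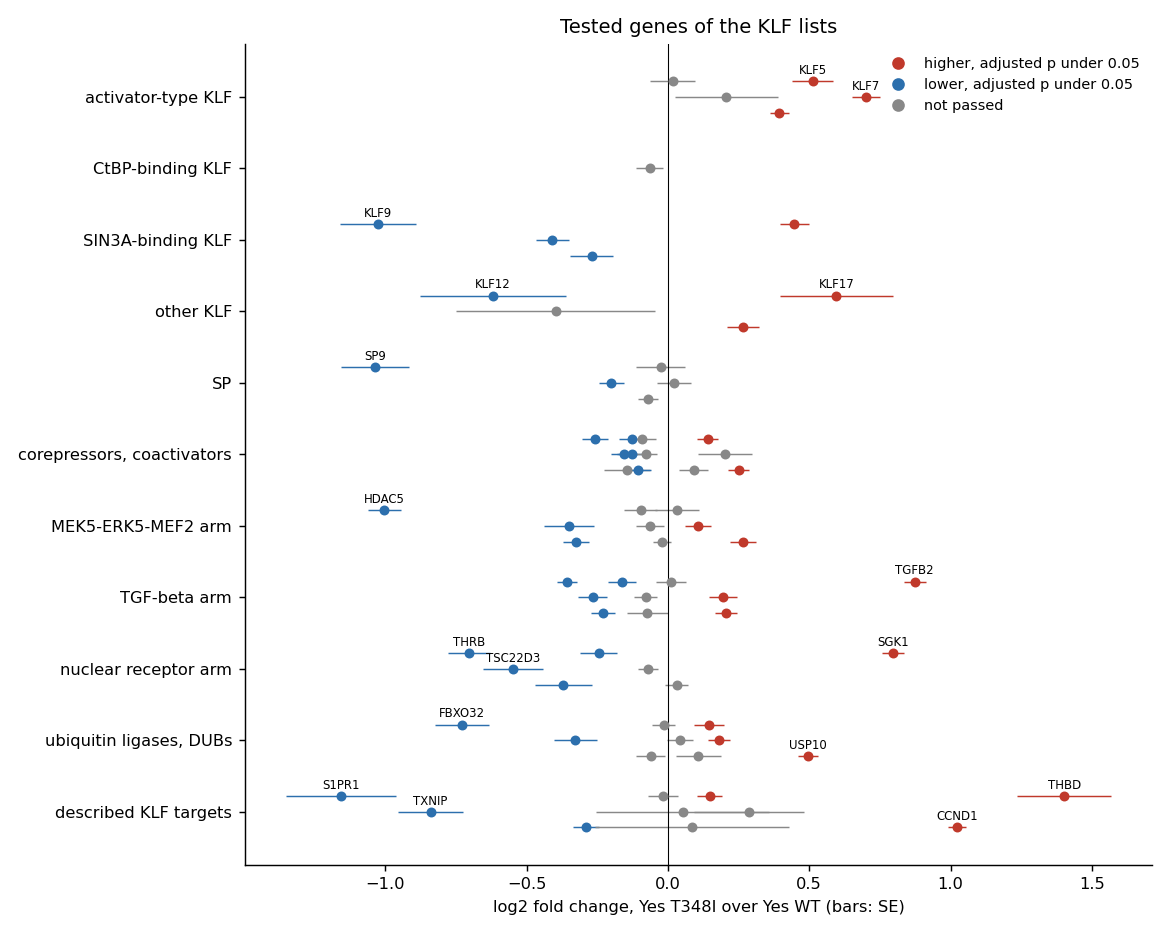
Log2 fold change (Yes T348I over Yes WT, bars of SE) of each tested gene in the 3 classes of Kruppel-like factors and 8 further lists, coloured by call, with names for sizes of at least 0.45. Genes that rose and genes that fell occur in most lists, and the activator-type factors KLF5 and KLF7 lie at 0.51 and 0.70.

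Reads on the strand opposite to the factors were few, at most 42 per library. They made up 0.821% of the sense counts of KLF6 in Yes T348I and 0.808% in Yes WT. The share was largest at KLF9, with 9 reads in each line, or 5.23% in Yes T348I and 2.71% in Yes WT. KLF3, whose exons share 266 bases with those of the antisense gene KLF3-AS1, had 5, 4 and 6 opposite-strand reads in Yes T348I libraries, against 9, 12 and 10 in Yes WT libraries. KLF3-AS1 itself had 4, 3 and 9 counts in Yes T348I libraries, against 13, 6 and 9 in Yes WT libraries, and was not tested. KLF7-IT1, an intronic transcript of KLF7, had at most 5 counts in a library. AC104794.4, which overlaps KLF11 on the opposite strand by 416 bases, had no count in any library.

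**Figure D5:**
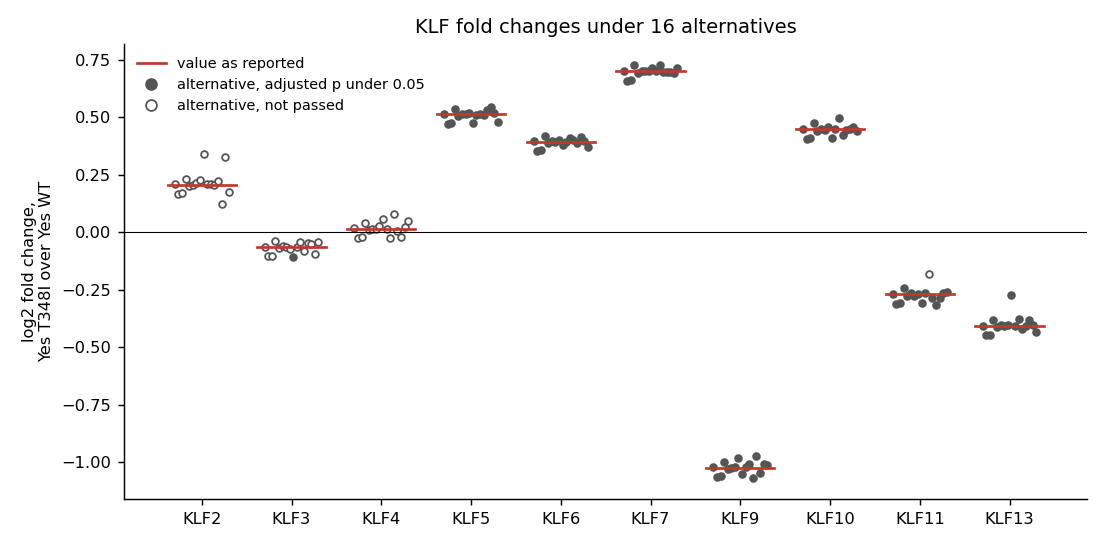
Log2 fold change of each factor (Yes T348I over Yes WT) as reported (red line) and under 16 other ways of processing the counts, filled where the adjusted p was under 0.05 and open where it was not. KLF5, KLF6, KLF7, KLF10, KLF9 and KLF13 stay filled and on one side of 0 throughout, KLF11 has 1 open point at -0.18 and KLF3 has 1 filled point at -0.11.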

How the data were processed

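The authors deposited unnormalised read counts by gene for each library, from polyadenylated RNA sequenced with a strand-keeping kit, per the labels' protocols. Named in the submitters' processing notes are STAR 2.5.1b, Trimmomatic 0.35, CASAVA 1.8.2 and GRCh38. Which annotation release was counted is not given in these sources. The reverse-strand counts that the authors deposited were used, since the forward column held 6.13% to 6.59% of their total. Summary lines stayed out, and reads on no annotated exon made up 6.37% to 7.87% of uniquely mapped reads.

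Identifiers were paired with symbols by a gene name table (41844 of 58219) or GENCODE release 29 (57878 found), which also gave GRCh38 positions and exon lengths. In R 4.3.3, edgeR 4.0.16 kept 14723 genes (filterByExpr, minimum count 10), scaled libraries by TMM and compared Yes T348I with Yes WT by a quasi-likelihood F-test with no covariate, with Benjamini-Hochberg adjustment over all tested genes and a threshold of 0.05. The same test was also run on counts simulated from the fitted data. Far fewer genes changed there than were called here, so that run does not give the error rate in these data. SE is the size of the log2 fold change divided by the root of F, and intervals are 1.96 SE either side. Alternatives used DESeq2 1.42.0, limma 3.58.1 (voom), other scalings, filters and the unstranded counts, offsets for GC content and length, a replicate block, and 1 library left out in turn.

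The factors and the lists around them were chosen with earlier results of these data known. The genes named are the 10 factors, YES1, all tested KLF and SP genes, overlapping genes and, in each other list, the up to 4 tested genes with the lowest adjusted p. MAPK7, MEF2C, S1PR1, PER1 and FKBP5 were named after their values were seen. Floors and counting errors cover counting error only. One gene of the list of described targets is not reported here and was left out of its counts.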

Additional observations from a re-analysis of the deposited data

How the results depend on the processing

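The calls of KLF5, KLF6, KLF7, KLF9, KLF10 and KLF13 held under all 16 alternatives. KLF11 lost its call in 1 (without Yes T348I replicate 1) and KLF3 gained one in 1 (GC and length offsets), and KLF2 and KLF4 did not pass in any. The number of the 10 factors that rose was 4 throughout, and the number that fell was 3 except for 2 without Yes T348I replicate 1 and 4 with the GC and length offsets. Over all genes 3522 to 4481 rose and 3134 to 4626 fell under the alternatives, against 4123 and 4024 as reported. KLF4, near no change, turned to -0.024 with upper quartile factors and -0.021 with library sizes alone, and ranged from -0.024 to 0.078 with 1 library left out. SP2 turned to -0.020 with upper quartile factors and -0.017 with library sizes alone, and ranged from -0.013 to 0.068 with 1 library left out. SP4 turned to 0.00038 with no low-count filter and ranged from -0.052 to 0.031 with 1 library left out. CREBBP turned to 0.0083 with the GC and length offsets. The cause of these changes was not tested.

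With the replicate number as a block, 4054 genes rose and 3936 fell, with 4 and 3 of the factors. Libraries of the same number did not deviate together (correlations of -0.028, 0.001 and -0.019), so the numbers give no sign of pairing. KLF15 gave no value under the filter at 1 CPM in 3 libraries. Depth limits KLF2, KLF9, KLF12, KLF15 and KLF17, which have few counts.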
